A study of Mus musculus with 18 samples.

Results

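The genes of pulmonary surfactant and of the lamellar body were followed through 18 cultures of the mouse EGFR lung cancer model. The 10 genes were fixed by name: the surfactant proteins Sftpa1, Sftpb, Sftpc and Sftpd, the lamellar body lipid transporter Abca3, the lamellar body membrane protein Lamp3, the processing proteases Napsa and Ctsh, the phosphate carrier Slc34a2 and the phosphatidylcholine enzyme Lpcat1. Each was matched by its gene ID and symbol in the GENCODE vM21 annotation, and these are 10 of the 46603 genes in each table. All 10 had counts in every library and passed the filter of every test.

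On the GRCm38 build the genes are Sftpa1 (ENSMUSG00000021789, chr14:41131782-41136452), Sftpd (ENSMUSG00000021795, chr14:41172214-41185149), Sftpc (ENSMUSG00000022097, chr14:70520949-70524081) and Sftpb (ENSMUSG00000056370, chr6:72304610-72314371). Both collectin genes lie within 1 stretch of chromosome 14. The transporter Abca3 (ENSMUSG00000024130) is at chr17:24351950-24410201, Lamp3 (ENSMUSG00000041247) at chr16:19653378-19706375 and Slc34a2 (ENSMUSG00000029188) at chr5:53038081-53071664. Napsa (ENSMUSG00000002204) is at chr7:44572380-44586862, Lpcat1 (ENSMUSG00000021608) at chr13:73467197-73516422 and Ctsh (ENSMUSG00000032359) at chr9:90054152-90076089.

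Surfactant is a film of phospholipid and protein that lowers surface tension in the alveoli and is made by alveolar type 2 (AT2) cells. Its lipid is built in the endoplasmic reticulum, pumped into lamellar bodies, packed there with the mature hydrophobic proteins SP-B and SP-C, and released by exocytosis. SP-A and SP-D are collectins, secreted lectins of lung defence, and SP-D is also made by airway cells, so it is the least AT2-restricted of the surfactant proteins.

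All cultures came from mice that carry a loxP-stop-loxP allele of double-mutant human EGFR (EGFR TL) under the CAG promoter at the Col1a1 locus. Tracheal NGFR-negative club cells, tracheal NGFR-positive basal cells, Sca1-negative AT2 cells and Sca1-positive bronchioalveolar stem cells (BASCs) were sorted and divided into 2 aliquots. One aliquot received Ad-GFP, in which the allele stays silent, and the other Ad-Cre, which removes the stop cassette. Ad-Cre BASC organoids were also picked by morphology into an alveolar and a bronchiolar culture, so those 2 libraries and the mixed one share a source. The paper states that mixed BASC cultures contained organoids of both the alveolar and the bronchiolar kind. Each of the 10 pretransplant organoid conditions gave 1 library. Ad-Cre organoids were injected into the trachea of athymic Nude (Foxn1 Nu/Nu) mice, which lack T cells, and the tumors were dissociated and grown again in 3D culture before RNA was taken. Of these tumoroids 3 had an AT2 origin, 3 grew from mixed and 1 from bronchiolar BASC organoids, and 1 further tumoroid came from an autochthonous tumor. The AT2-derived tumoroids carry an NGFR-negative sorting label beside their AT2 origin and were placed by origin. All cultures were grown with lung mesenchymal support cells.

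For comparison the libraries were placed in classes. The tracheal organoids (n = 4), the alveolar organoids (AT2 Ad-GFP, AT2 Ad-Cre and alveolar BASC Ad-Cre, n = 3) and the mixed or bronchiolar BASC organoids (n = 3) were all pretransplant. The alveolar transplant tumoroids were the AT2-derived and the mixed BASC-derived ones (n = 6), and the bronchiolar and the autochthonous tumoroid stood alone. Classes of organoids pool different populations and viruses, so a test between them measures the spread between those cultures. Both virus aliquots of a sorted population, and BASC cultures that share a source, count as separate libraries in these classes. The fits between classes have no term for this, so their p-values treat linked cultures as independent. The study named tumors alveolar or bronchiolar from lineage markers that include SP-C, so the difference in Sftpc between those 2 kinds of tumoroid is not independent of the naming.

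Total expected counts were 27772660 to 97191624 in the organoids, run on a HiSeq, and 15327265 to 23355938 in the tumoroids, run on a DNBSEQ, so platform and transplantation cannot be told apart. Fibroblast markers (8 of 8 detected in every class) summed to 2549 to 2977 CPM (counts scaled to the depth of each library) in tracheal organoids, 4712 to 8482 in alveolar organoids and 488 to 9626 in alveolar transplant tumoroids. Epithelial markers summed to 5668 to 6530, 2014 to 2701 and 979 to 5303 CPM in the same classes. AT2-derived tumoroid 3 held both the highest fibroblast sum, 9626 CPM, and the lowest epithelial sum, 979 CPM. In the tracheal NGFR-negative Ad-Cre organoid all of the 10 genes but Abca3 stood above the other 3 tracheal libraries. The 11 AT2 genes apart from the 10 did not do so as a sum. They summed to 1158 CPM there, within the 1023 to 1167 CPM of the tracheal organoids. Endothelial markers summed to at most 9.56 CPM in any library. The leukocyte list summed to at most 66.6 CPM.

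Promoter windows of RefSeq (GRCm38.p6, 250 bases before and 50 after a start site) were at hand for 6 of the 10 genes, Sftpa1, Sftpb, Abca3, Lamp3, Slc34a2 and Lpcat1. Of these, 4 are shown, because the first 3 belong to genes that were almost silent in trachea and the last to a gene that kept a steady level there. Letters were searched on both strands for the NKX2-1 core CTCAAG, the FOX letters TGTTTAC and the C/EBP letters TTGCNNAA, and matches are in capitals.
Sftpb, chr6:72304360-72304659, plus strand: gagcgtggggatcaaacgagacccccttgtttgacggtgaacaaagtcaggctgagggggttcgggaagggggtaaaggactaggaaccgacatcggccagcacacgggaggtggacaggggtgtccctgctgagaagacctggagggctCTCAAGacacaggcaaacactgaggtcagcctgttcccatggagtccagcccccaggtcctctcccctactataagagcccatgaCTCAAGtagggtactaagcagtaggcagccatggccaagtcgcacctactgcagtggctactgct
Sftpa1, chr14:41131538-41131837, plus strand: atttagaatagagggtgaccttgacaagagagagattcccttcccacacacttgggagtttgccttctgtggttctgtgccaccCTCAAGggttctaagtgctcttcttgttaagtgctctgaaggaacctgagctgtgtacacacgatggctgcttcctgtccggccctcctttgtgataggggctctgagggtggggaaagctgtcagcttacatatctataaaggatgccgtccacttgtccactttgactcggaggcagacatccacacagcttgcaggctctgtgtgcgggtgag
Lamp3, chr16:19706316-19706615, minus strand: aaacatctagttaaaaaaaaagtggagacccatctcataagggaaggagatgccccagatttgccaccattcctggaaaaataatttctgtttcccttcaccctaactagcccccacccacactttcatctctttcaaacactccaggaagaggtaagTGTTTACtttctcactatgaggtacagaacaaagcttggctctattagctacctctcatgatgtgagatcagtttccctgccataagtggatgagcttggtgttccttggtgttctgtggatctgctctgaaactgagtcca
Abca3, chr17:24351773-24352072, plus strand: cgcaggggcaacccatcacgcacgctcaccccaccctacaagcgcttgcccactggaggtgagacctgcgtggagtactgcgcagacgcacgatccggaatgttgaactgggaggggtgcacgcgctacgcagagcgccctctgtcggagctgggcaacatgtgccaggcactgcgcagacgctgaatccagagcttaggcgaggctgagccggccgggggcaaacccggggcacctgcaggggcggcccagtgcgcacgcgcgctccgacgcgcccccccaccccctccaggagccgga

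The Sftpb window held CTCAAG 2 times, with first bases 100 and 15 before the start, and 1.40% of all 32851 windows hold it 2 or more times. Sftpa1 held it once and Lamp3 held TGTTTAC once, against 15.9% and 3.65% of all windows with at least 1 match. The Slc34a2 window held TTGCNNAA once, against 10.8% of all windows. This window begins at chr5:53049103, inside the gene, whose annotated span begins at 53038081. None of these letters was found in the Abca3 and Lpcat1 windows. The windows also differed in CG dinucleotides, of which the median window holds 7. Lamp3 had 0, Sftpa1 had 5 and Sftpb had 8, whereas Lpcat1 had 25, Abca3 had 29 and Slc34a2 had 30. These matches are a description of letters and not of binding.

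In alveolar organoids the 10 genes together took 8.18 to 8.85% of all TPM (transcript abundance, scaled by transcript length and depth), against 0.109 to 0.157% in tracheal organoids. Sftpc alone made up 69.2 to 73.9% of that total and was the gene with the highest TPM of all genes in each of the 3 alveolar organoids. On the TPM scale Sftpb followed, with 12490 in AT2 Ad-GFP, 10750 in AT2 Ad-Cre and 10353 in alveolar BASC Ad-Cre organoids. Below these lay Ctsh (2259 to 2727 TPM), Napsa (2048 to 2290), Slc34a2 (1682 to 2483), Sftpa1 (1485 to 3442) and Sftpd (1180 to 2373), whose ranges overlap so that their order is not fixed by 3 libraries. Lamp3 (665 to 1135 TPM), Lpcat1 (379 to 452) and Abca3 (197 to 340) were the lowest. The order in trachea was different: Sftpd (716 to 1045 TPM) and Ctsh (308 to 340) led, followed by Abca3 and Slc34a2 at 17.1 to 39.3 TPM, and Lpcat1 at 9.33 to 11.6. In the NGFR-negative Ad-Cre organoid alone Sftpc (62.8 TPM) and Sftpb (34.1 TPM) came before these last 3.

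**Figure D1:**
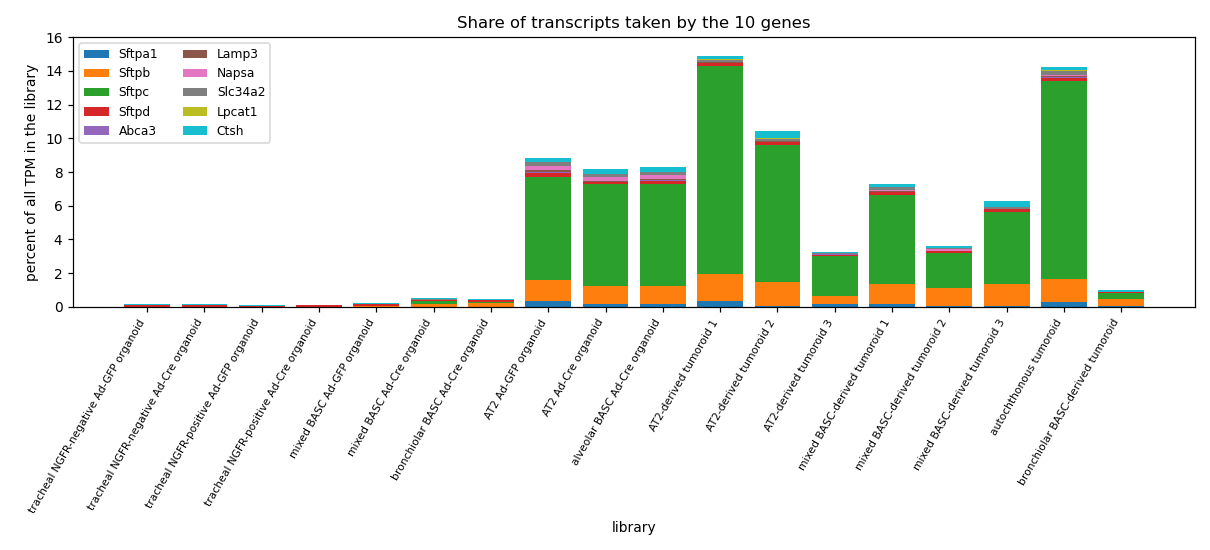
Share of all TPM (vertical axis, percent) taken by each of the 10 genes in each of the 18 libraries, stacked and ordered by class. The 3 alveolar organoids reach 8.18 to 8.85%, the 4 tracheal organoids stay at or below 0.157%, and the alveolar transplant tumoroids spread from 3.27 to 14.9%.

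Alveolar organoids were set against tracheal organoids to ask how far the surfactant program separates distal alveolar from airway epithelium. All 10 genes were higher in alveolar organoids, in a comparison where 32.9% of 18135 genes were called higher and 34.1% lower by edgeR. The median log2 fold change of the 10 was 8.19, against -0.04 over all genes. For each of the 10 genes all 3 alveolar libraries lay above all 4 tracheal ones, as they did for 30.9% of all genes tested. In bulk cultures fewer cells of a type and less RNA per cell cannot be told apart.

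Sftpc, the hydrophobic protein made by AT2 cells, stood at 27563, 26674 and 28898 CPM in AT2 Ad-GFP, AT2 Ad-Cre and alveolar BASC Ad-Cre organoids. In trachea it was 1.79 and 27.0 CPM in NGFR-negative and 2.19 and 1.33 CPM in NGFR-positive organoids, Ad-GFP first. The alveolar libraries differed among themselves by 1.08-fold, while a single tracheal library stood apart from the other 3. The log2 fold change was 11.82 ± 1.46 (SE, adjusted p = 1.9e-04).

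Sftpb encodes the protein that is indispensable for spreading of the surfactant film. It measured 9867, 8284 and 8648 CPM in the alveolar organoids. The tracheal values were 5.98, 26.7, 0.743 and 1.20 CPM, in the same order of libraries. The groups did not overlap (log2 fold change 10.08 ± 1.40, SE, adjusted p = 3.6e-04). Without the tracheal NGFR-negative Ad-Cre organoid the log2 fold changes were 11.85 for Sftpb, 14.00 for Sftpc, 11.17 for Sftpa1 and 12.71 for Lamp3.

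The collectins differed from each other. Sftpa1 was 3263, 1376 and 1824 CPM in alveolar organoids and 0.743 to 6.48 CPM in trachea (log2 fold change 9.92 ± 0.93, SE, adjusted p = 4.4e-05). Sftpd was 1820, 887 and 1475 CPM in alveolar organoids and already 534 to 766 CPM in trachea. The difference in Sftpd was the smallest of the 10 (1.16 ± 0.24, SE, adjusted p = 0.0033), and its nearest libraries, 887 and 766 CPM, were close.

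Lamp3 and Napsa were likewise almost restricted to the alveolar libraries. Lamp3 was 2261, 1299 and 1705 CPM against 0.506, 2.34, 0.241 and 0.148 CPM (log2 fold change 11.24 ± 0.90, SE, adjusted p = 2.0e-05). Napsa, the aspartic protease that trims the SP-B and SP-C precursors, was 2010, 1762 and 1986 CPM against 1.11 to 1.97 CPM (10.46 ± 0.24, SE, adjusted p = 1.3e-07). Both genes were therefore near the floor in trachea, where Lamp3 rested on as few as 8 counts in a library.

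The remaining 4 genes kept a measurable tracheal level. Slc34a2, which carries phosphate into the cell, was 4418 to 6200 CPM against 41.2 to 77.1 CPM. Lpcat1, which remodels phosphatidylcholine to the saturated surfactant form, was 824 to 936 against 18.1 to 23.0 CPM. Abca3 was 739 to 1255 against 104 to 126 CPM, and Ctsh, a cysteine protease that also processes SP-B, was 1282 to 1682 against 168 to 190 CPM. Their log2 fold changes were 6.46, 5.49, 3.11 and 3.14. The spread between tracheal libraries was under 2-fold for these 4 genes and for Sftpd and Napsa, but 8.73-fold for Sftpa1 and 36.0-fold for Sftpb.

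**Figure D2:**
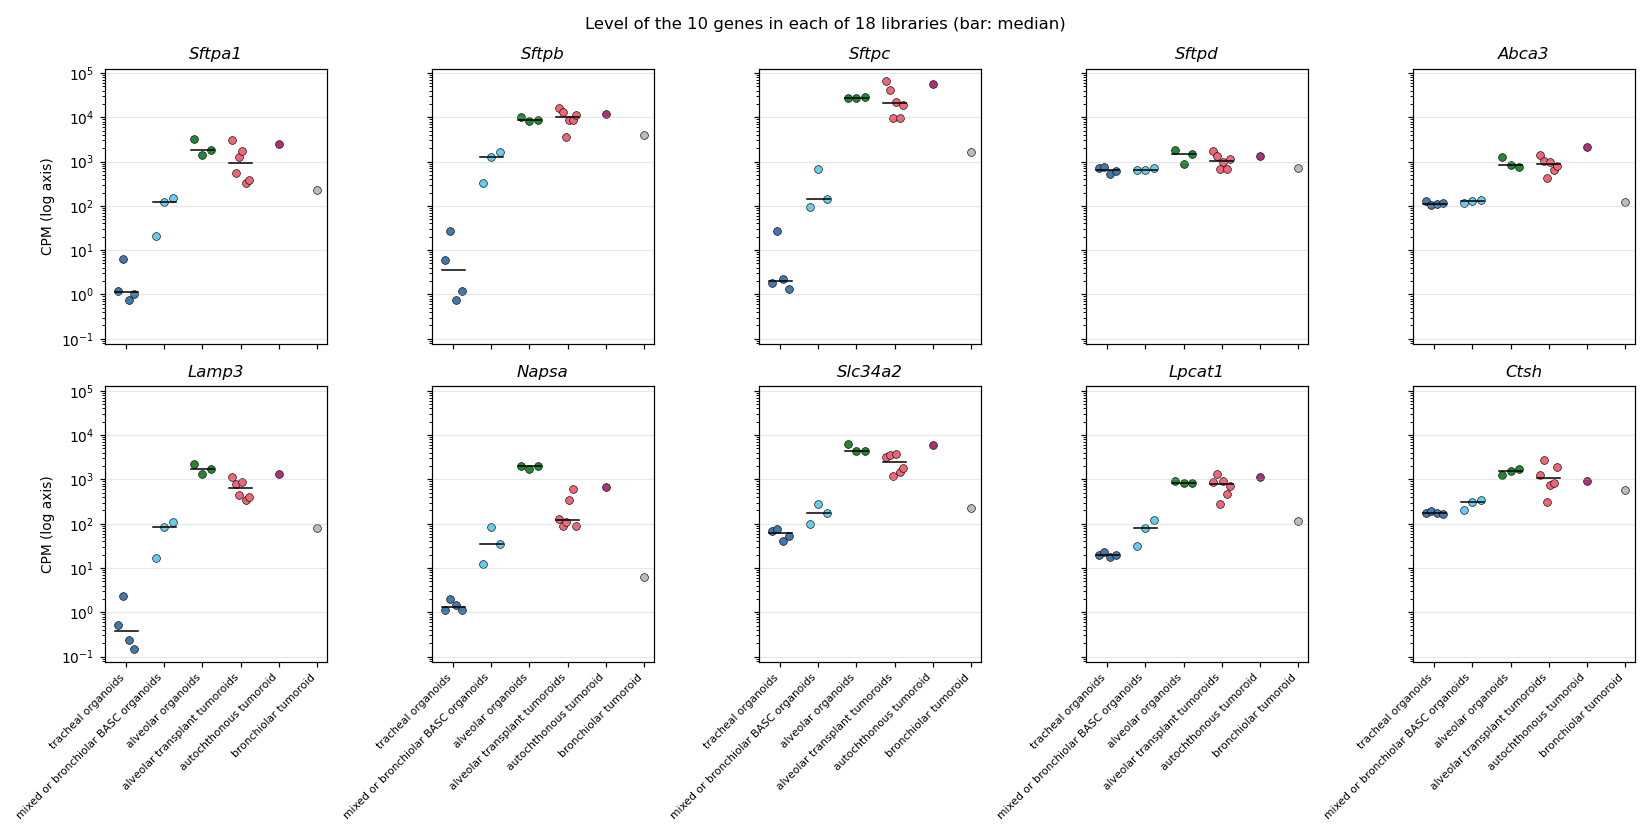
CPM on a log axis for each of the 10 genes, 1 point per library in 6 classes, with a bar at the median of classes of more than 1 library. Sftpa1, Sftpb, Sftpc, Lamp3 and Napsa run from at most 27.0 CPM in trachea to at least 1299 CPM in alveolar organoids, while Sftpd, Abca3 and Ctsh start at 104 CPM or more.

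Other surfactant genes moved along, with smaller median changes than the 10, though the largest single changes exceeded those of some of the 10. Of 27 genes of surfactant lipid synthesis, 22 were higher and 2 lower, with a median log2 fold change of 1.23. The stearoyl-CoA desaturase Scd1 (6.29), the fatty acid elongase Elovl1 (4.31) and the lipid-binding Fabp5 (3.33) had the largest increases, and the phosphocholine-activating isoform Pcyt1b (-4.14) and Ptpmt1 (-0.34) were lower. Of 34 genes of lamellar body and surfactant handling, 24 were higher and 6 lower, with a median of 0.48. Csf2rb, the GM-CSF receptor chain (6.13), Lyz2, a lysozyme stored in lamellar bodies (5.9995), and Syt7, a calcium sensor of exocytosis (5.08), led the increases, whereas the secretory GTPase Rab3d was lower (-0.96).

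Of 23 regulators tested, 13 were higher and 8 lower. Foxa2 (4.76), Gata6 (3.90) and Etv5 (3.69) had the largest increases and Sox2 (-4.71), Foxa1 (-2.81) and Sox9 (-2.02) the largest decreases. Nkx2-1 and Cebpa, named here because the letters of their motifs were searched, changed by 1.68 and 3.22 on the log2 scale. Nkx2-1 stood at 98.1 to 108 CPM in trachea and at 250 to 350 CPM in alveolar organoids. This was a far smaller step than that of Sftpa1, Sftpb and Sftpc, and a larger one than that of Sftpd. Fibroblast markers were also higher in alveolar organoids (7 of 8), and epithelial markers lower (8 of 8). The part of both in these differences was not tested. Scaling to the epithelial markers shifted the median of all genes from -0.04 to 1.31. Because those markers are lower in alveolar organoids, this scaling raises other genes there and is no check on the direction of the 10.

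Among distal cultures the alveolar organoids were compared with the mixed or bronchiolar BASC organoids, which share the BASC origin with 1 of the 3 alveolar cultures. The AT2 libraries are aliquots of 1 sorted population and the BASC libraries share a source. The fit has no term for this, so its p-values treat linked cultures as independent. All 10 genes were higher in the alveolar organoids, where 21.7% of 18070 genes were called higher and 20.3% lower. The median log2 fold change of the 10 was 4.01. For each of the 10 all alveolar libraries lay above the other class, against 27.0% of all genes tested.

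Sftpc stood at 96.5 CPM in the mixed BASC Ad-GFP organoid, 669 in mixed BASC Ad-Cre and 145 in bronchiolar BASC Ad-Cre. These are 0.348, 2.42 and 0.524% of the alveolar organoid mean (log2 fold change 6.56 ± 0.98, SE, adjusted p = 0.0038). Sftpb was retained much more, at 326, 1245 and 1659 CPM, which is 3.65, 13.9 and 18.6% of the alveolar mean (3.10 ± 0.61, SE, adjusted p = 0.0095). Sftpb exceeded Sftpc on the TPM scale in each of the 3 libraries, by as much as 2251 to 348 TPM in the bronchiolar one, whereas Sftpc exceeded Sftpb in each alveolar organoid.

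Napsa (12.6, 84.9 and 35.3 CPM, log2 fold change 5.49), Slc34a2 (98.4, 273 and 177 CPM, 4.83), Lamp3 (16.95, 85.4 and 110 CPM, 4.68) and Sftpa1 (21.2, 125 and 151 CPM, 4.50) were all at or below 6.995% of their alveolar means. Lpcat1 and Ctsh reached 13.9 and 22.6% in the bronchiolar culture. Without the mixed BASC Ad-Cre organoid the log2 fold changes of Sftpc and Napsa were 7.88 and 6.36. Abca3 (118, 128 and 134 CPM) and Sftpd (632, 658 and 710 CPM) stayed near their tracheal levels. The call for Sftpd (1.11 ± 0.28, SE, adjusted p = 0.0220) was lost when the AT2 Ad-GFP, the alveolar BASC or the mixed BASC Ad-Cre organoid was left out, with log2 fold changes of 0.89, 1.07 and 1.09.

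The lipid synthesis genes again moved with them (19 of 27 higher, 1 lower), as did handling (18 of 34 higher, 2 lower) and, in both directions, regulators (11 higher and 7 lower of 23). Scd1 (4.08), Elovl1 (3.86) and Gpam (3.00), the first enzyme of glycerolipid synthesis, led the lipid genes. Csf2rb (4.86), Lyz2 (4.52) and Syt7 (3.72) led the handling genes, and Cebpa (2.86), Etv5 (2.62) and Tbx5 (2.34) the regulators. Sox2 (-4.48), Sox9 (-2.64) and Foxa1 (-2.40) were the regulators with the largest decreases. Basal markers summed to 1037 to 3092 CPM in the mixed or bronchiolar BASC organoids and to 9.80 to 175 CPM in the alveolar ones, and their part was not tested.

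**Figure D3:**
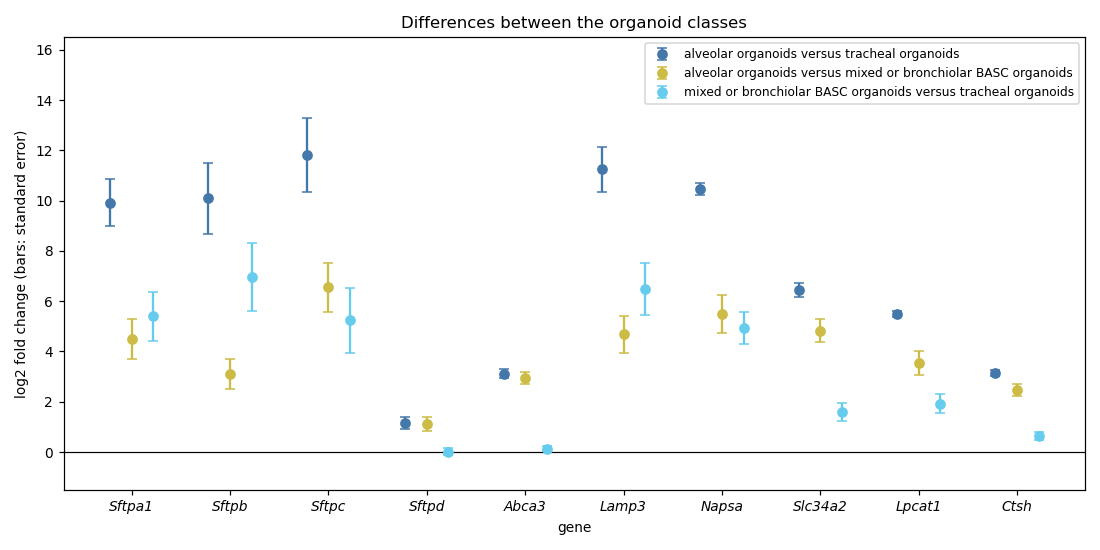
Log2 fold change (vertical axis) with its standard error for each of the 10 genes in the 3 comparisons between organoid classes. Sftpc and Lamp3 have the largest difference between alveolar and tracheal organoids, 11.82 and 11.24, and Sftpd and Abca3 the smallest between mixed or bronchiolar BASC and tracheal organoids, 0.02 and 0.13.

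Within the Ad-Cre BASC cultures, where 1 library stands on each side and no test was made, the alveolar organoid exceeded the bronchiolar one at least 2-fold for all 10 genes, as did 13.7% of 14844 genes. The ratio was 199-fold for Sftpc, 56.3-fold for Napsa, 24.9-fold for Slc34a2, 15.5-fold for Lamp3 and 12.1-fold for Sftpa1. It was 4.98- to 6.92-fold for Lpcat1, Abca3, Sftpb and Ctsh, and 2.08-fold for Sftpd, whose log2 ratio of 0.87 on the TPM scale is below 2-fold. Because these cultures were picked by morphology from Sca1-positive organoids, the contrast describes the morphologies that were chosen.

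The alveolar BASC organoid was close to the 2 AT2 organoids. For 0 of 10 genes did it lie at least 2-fold away and outside the AT2 range, against 5.18% of 14684 genes in either direction. The ratios to the AT2 mean ran from 0.705 for Abca3 to 1.20 for Ctsh, with 1.07 for Sftpc and 1.05 for Napsa. Abca3 at 739 CPM lay below both AT2 values, 1255 and 843 CPM, and so did Slc34a2 (4418 against 4489 to 6200 CPM). Sftpc (28898 against 26674 to 27563 CPM) and Ctsh (1682 against 1282 to 1512 CPM) lay above both. With 1 BASC and 2 AT2 libraries no interval of the difference was computed.

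The mixed or bronchiolar BASC organoids were then set against trachea, to see whether airway-like distal cultures keep any of the program. For 8 of the 10 genes each BASC library lay above each tracheal one, Sftpd and Abca3 being the exceptions, and the same was true of 8.37% of all genes tested. Only Napsa was called higher (log2 fold change 4.94 ± 0.63, SE, adjusted p = 0.036), in a comparison with 0.218% of 17908 genes called higher. This call was lost when any single library other than the mixed BASC Ad-GFP organoid was left out.

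The other differences were large but varied. Sftpb differed by 6.95 ± 1.35 (SE, adjusted p = 0.084), Lamp3 by 6.50 ± 1.04 (adjusted p = 0.061), Sftpa1 by 5.39 ± 0.98 (adjusted p = 0.073) and Sftpc by 5.23 ± 1.31 (adjusted p = 0.12). Lpcat1 (1.92), Slc34a2 (1.60) and Ctsh (0.65) differed less, and Abca3 and Sftpd by 0.13 and 0.02. Foxa2 was the only regulator of 23 called, 11.5, 23.9 and 29.0 CPM against 2.15 to 4.65 CPM (2.76, adjusted p = 0.039). The DESeq2 test called 8 of the 10 genes higher, as did edgeR without the mixed BASC Ad-GFP organoid, which held the lowest value of the 3 for each of those 8 genes. In these fits 6.09% and 26.4% of all genes were called in either direction. Without the mixed BASC Ad-Cre organoid the log2 fold change of Napsa was 4.06.

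Ad-Cre was compared with Ad-GFP within the 4 populations, to ask whether EGFR TL expression before transplantation moved the program. None of the 10 genes was called by edgeR with population as a block, and of 17749 genes 0% were called while 350 had an unadjusted p under 0.05. DESeq2 called 5 genes in all and none of the 10. By single libraries all 10 genes were higher with Ad-Cre in the mixed BASC pair, where 53.6% of genes at 1 CPM or more were higher, and 9 of 10 were lower in the AT2 pair, where 53.5% were lower. In the NGFR-negative tracheal pair 9 of 10 were higher, against 53.6% of genes at 1 CPM or more. Of the 9 that reached 1 CPM in the NGFR-positive pair 6 were higher, against 45.1%.

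In mixed BASC organoids Sftpc was 96.5 CPM with Ad-GFP and 669 with Ad-Cre, a 6.93-fold ratio. Napsa went from 12.6 to 84.9 CPM (6.73-fold), Sftpa1 from 21.2 to 125 (5.88-fold), Lamp3 from 16.95 to 85.4 (5.04-fold) and Sftpb from 326 to 1245 (3.82-fold). Slc34a2, Lpcat1 and Ctsh followed with 2.77-, 2.61- and 1.47-fold, and Abca3 and Sftpd with 1.09- and 1.04-fold. These are ratios of single libraries of mixed cultures, in which the share of alveolar organoids is not known. Club and ciliated markers summed to 12440 and 1257 CPM with Ad-GFP and to 7838 and 324 CPM with Ad-Cre. Fibroblast markers summed to 2273 and 6358 CPM, and the part of these markers was not tested.

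In AT2 organoids Sftpa1 was 3263 CPM with Ad-GFP and 1376 with Ad-Cre, and Sftpd was 1820 and 887. These were the genes with the lowest Ad-Cre to Ad-GFP ratios there, 0.422 and 0.487, both collectins. Lamp3 followed (2261 and 1299 CPM, 0.574) and then Abca3 (1255 and 843 CPM, 0.671). Sftpc (0.968), Sftpb (0.840), Napsa (0.876) and Lpcat1 (0.880) were close to their control values. Ctsh alone was above it (1282 and 1512 CPM, 1.18). The 11 AT2 genes apart from the 10 summed to 26021 CPM with Ad-GFP and 16683 with Ad-Cre, AT1 markers to 3633 and 4986 CPM and club markers to 337 and 738 CPM, and their part was not tested.

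In trachea the NGFR-negative pair showed Sftpc at 1.79 and 27.0 CPM, Sftpa1 at 1.22 and 6.48, Sftpb at 5.98 and 26.7 and Lamp3 at 0.506 and 2.34, Ad-Cre higher each time. The Ad-Cre value of Sftpc is 0.0975% of the alveolar organoid mean. In the NGFR-positive pair the same 4 genes were at or below 2.19 CPM with either virus. Slc34a2, Lpcat1, Ctsh, Abca3 and Sftpd differed by at most 1.27-fold between the viruses in both tracheal pairs.

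Across the 4 pairs the fitted difference was 1.48 ± 0.90 for Sftpc (SE, adjusted p = 0.99) and 1.16 ± 0.47 for Sftpb (unadjusted p = 0.048, adjusted p = 0.99). The effect of Ad-Cre in distal against tracheal organoids, tested as an interaction, was called for none of the 10 genes and for 0% of 19178 genes (890 had an unadjusted p under 0.05, and DESeq2 called 137, none of them among the 10). The pooled distal effect joins the AT2 and mixed BASC pairs, which went opposite ways for 9 of the 10 genes. Without the AT2 pair Napsa (2.64), Slc34a2 (1.23) and Lpcat1 (1.23) were called, and without the mixed BASC pair Sftpa1 (-2.86), Sftpb (-1.98) and Sftpd (-1.20), each time from 6 libraries. All genes called made up 10.7% and 1.96% in these fits, in which a single distal pair stands for distal.

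**Figure D4:**
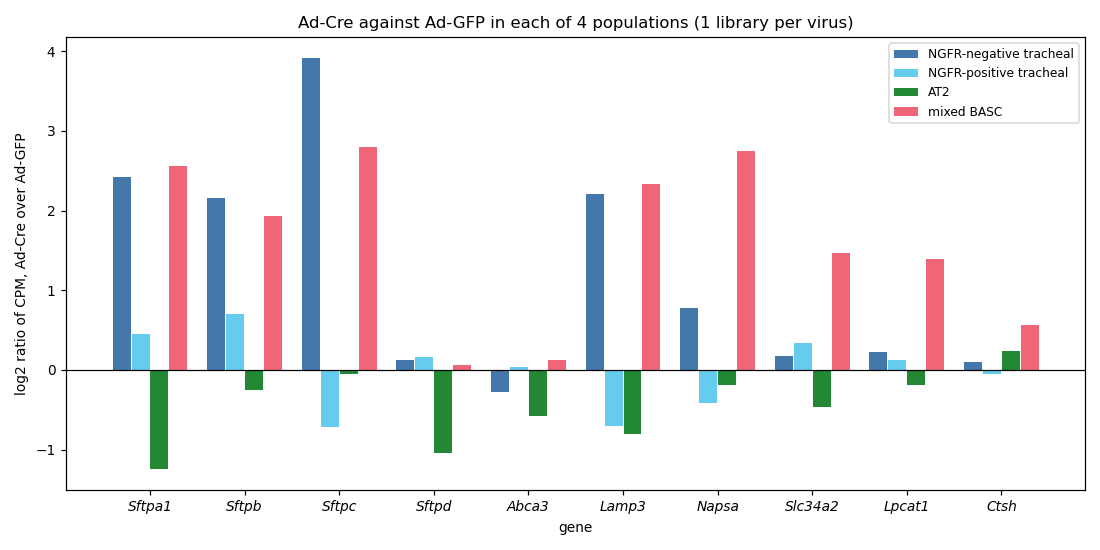
Log2 ratio of CPM, Ad-Cre over Ad-GFP, for each of the 10 genes in 4 populations with 1 library per virus. All 10 bars of the mixed BASC pair lie above 0 and 9 of the 10 bars of the AT2 pair below it.

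The 6 alveolar transplant tumoroids were set against the 3 alveolar organoids, to see how the program stood in the tumors. Mixed BASC-derived tumoroids have their source outside the alveolar organoid class, so for them this is no contrast of before and after. Their source, the mixed BASC Ad-Cre organoid, held Napsa at 84.9 CPM and Lamp3 at 85.4 CPM, below each of those tumoroids. Napsa and Lamp3 were called lower, 2 of 10 where 9.07% of 16260 genes were called lower and 12.7% higher. None of the 10 was called higher. The 2 classes differ in platform as well as in transplantation.

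Napsa stood at 129, 88.3 and 111 CPM in AT2-derived tumoroids 1 to 3 and at 339, 594 and 89.3 CPM in mixed BASC-derived tumoroids 1 to 3. All 6 were below the alveolar organoids, 1762 to 2010 CPM, and the log2 fold change was -3.05 ± 0.61 (SE, adjusted p = 0.0082). The autochthonous tumoroid, run on the same platform as the 6, held 679 CPM. The call held in each of 17 alternatives, with log2 fold changes from -3.61 to -2.88 and adjusted p from 3.1e-05 to 0.035.

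Lamp3 was 1158, 808 and 446 CPM in AT2-derived and 872, 336 and 408 CPM in mixed BASC-derived tumoroids, all below the lowest alveolar organoid, 1299 CPM. The fitted difference was -1.34 ± 0.40 (SE, adjusted p = 0.040). It lost its call in 9 of 17 alternatives, among them scaling to epithelial markers (adjusted p = 0.15) and summing tumoroids with a shared number (adjusted p = 0.050). Slc34a2 was also below the organoids in all 6 tumoroids, so that 3 of 10 genes did not overlap where 15.5% of all genes tested did not in this direction. It was 1169 to 3719 against 4418 to 6200 CPM, without passing the test (-0.98 ± 0.39, SE, adjusted p = 0.11).

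None of the surfactant proteins themselves was called. Sftpc was 65504, 40831 and 9840 CPM in AT2-derived and 21677, 9483 and 19268 CPM in mixed BASC-derived tumoroids, on both sides of the 26674 to 28898 CPM of the organoids (0.05 ± 0.64, SE, adjusted p = 0.96). Sftpb was 15957, 13421 and 3544 CPM in AT2-derived and 8625, 8778 and 11209 CPM in mixed BASC-derived tumoroids (0.25 ± 0.42, SE, adjusted p = 0.71). The tumoroids spread 6.91-fold in Sftpc, where the alveolar organoids spread 1.08-fold. Sftpc had the highest TPM of all genes in all 6.

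The ratio of Napsa to its substrate Sftpb, both as TPM, was 18.3 to 20.8% in the 3 alveolar organoids. In the 6 tumoroids it was 0.772, 0.634, 3.02, 3.72, 6.57 and 0.781%, and in the autochthonous one 5.43%. A low ratio was not particular to tumoroids. It was 3.54, 6.27 and 1.925% in the mixed BASC Ad-GFP, mixed BASC Ad-Cre and bronchiolar BASC Ad-Cre organoids. Ctsh, the other SP-B protease, was 1262, 2716 and 309 CPM in AT2-derived and 742, 852 and 1907 CPM in mixed BASC-derived tumoroids, with no call (-0.15 ± 0.56, SE, adjusted p = 0.87). The same held for Abca3 (-0.05), Lpcat1 (-0.12), Sftpd (-0.31) and Sftpa1 (-0.76).

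AT2-derived tumoroid 3, the library with the lowest epithelial sum, had the lowest value of the 6 for Sftpb, Sftpd, Abca3, Slc34a2, Lpcat1 and Ctsh. Without it the log2 fold changes were -2.91 for Napsa (adjusted p = 0.011) and -1.24 for Lamp3 (adjusted p = 0.0498). Napsa was not lowest in that library. The part of the support cells in the other values was not tested.

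**Figure D5:**
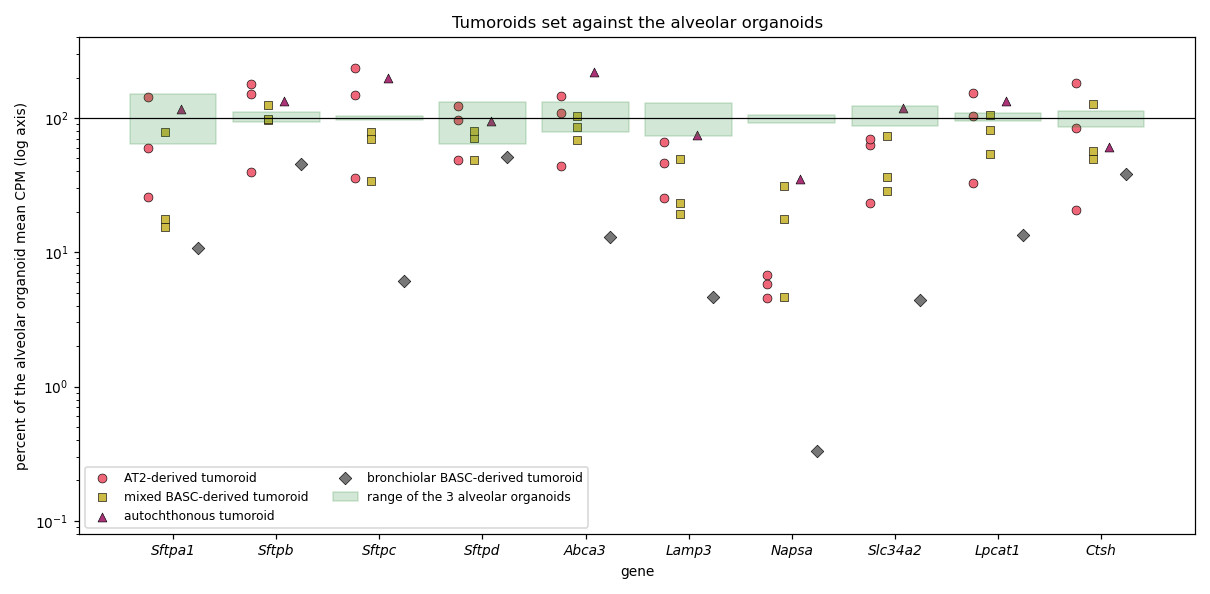
Level of each of the 10 genes in the 8 tumoroids as a percent of the alveolar organoid mean CPM, on a log axis, with the range of the 3 alveolar organoids shaded. The 6 alveolar transplant tumoroids lie at 4.60 to 31.0% for Napsa and at 19.1 to 65.99% for Lamp3, and on both sides of 100% for Sftpb and Sftpc.

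Among the other surfactant genes 5 of 27 of lipid synthesis were lower and 1 higher in these tumoroids. The lower ones included Scd1 (-2.09), Gpam (-1.76) and the cholinephosphotransferase Chpt1 (-1.44), and the triglyceride enzyme Dgat2 was higher (1.61). Of 34 handling genes 3 were lower, Lyz2 (-3.15), the surfactant-sensing receptor Adgrf5 (-1.30) and the ubiquitin ligase Itch (-0.50). Of 23 regulators 2 were lower, the glucocorticoid receptor Nr3c1 (-1.25) and Creb1 (-0.57). The shares of handling genes and regulators lie near the 9.07% of all genes called lower. Nkx2-1 and Cebpa were not called (-0.11 and 0.58). The AT2 genes apart from the 10 held 2 of 11 that were lower, Lyz2 and the complement gene Hc, which was 134 to 254 CPM in alveolar organoids, 0.249 to 11.45 CPM in the 6 tumoroids and 154 CPM in the autochthonous one.

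Tumoroids of AT2 and of mixed BASC origin (3 against 3) were compared to ask whether origin marks the tumors. None of the 10 genes was called, nor were any of 15470 genes (0% by edgeR, 144 with an unadjusted p under 0.05, and 10 by DESeq2, none of them among the 10). For each of the 10 genes the 2 groups overlapped, and 3.41% of all genes tested did not overlap. Napsa had the largest difference, -1.62 ± 0.63 (SE, unadjusted p = 0.040, adjusted p = 1), and Sftpc was 1.21 ± 0.77 (SE, adjusted p = 1). Labels give the same number to AT2-derived tumoroids 2 and 3, and to mixed BASC-derived tumoroids 2 and 3 and the bronchiolar tumoroid, without saying whether those came from the same mouse.

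The mixed BASC-derived tumoroids stood far above the mixed BASC Ad-Cre organoids in this program. For 9 of 10 genes the single organoid library was at least 2-fold lower than the mean of the 3 tumoroids and below each of them, as it was for 13.5% of 15719 genes. This contrast was added after the data were seen and has no test. Sftpc was 669 CPM in the organoid and 21677, 9483 and 19268 CPM in the tumoroids, a 25.1-fold higher mean. Lpcat1, Slc34a2 and Sftpb had 8.56-, 8.52- and 7.66-fold higher means, and Sftpa1, Abca3 and Lamp3 6.31- to 6.48-fold. Without mixed BASC-derived tumoroid 1 the ratio of Sftpa1 was 2.86-fold.

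Napsa had a smaller ratio, 84.9 CPM in the organoid and 339, 594 and 89.3 CPM in the tumoroids (4.02-fold, and 2.52-fold without mixed BASC-derived tumoroid 2). Ctsh was 302 CPM against 742 to 1907 CPM, and Sftpd, 658 against 680 to 1119 CPM, was the gene within 2-fold. Basal markers summed to 2105 CPM in the organoid and to 13.9 to 30.1 CPM in the tumoroids, and club markers to 7838 and to 314 to 1636 CPM. The part of either in these ratios was not tested.

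The bronchiolar BASC-derived tumoroid was lower than the 6 alveolar transplant tumoroids for 7 of 10 genes, at least 2-fold below their mean and below each of them, against 9.10% of 15737 genes. No test was run with 1 library. Napsa was 6.35 CPM, 35.5-fold below the mean of the 6 and the largest of the 10 ratios. Sftpc was 1684 CPM, 16.49-fold lower, and Slc34a2 223 CPM, 11.1-fold lower. Lamp3 (81.0 CPM), Abca3 (122), Lpcat1 (117) and Sftpa1 (231) were 5.33- to 8.29-fold lower.

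Sftpb in that tumoroid was 4063 CPM, within the range of the 6, and so were Sftpd (718 CPM) and Ctsh (567 CPM). Without AT2-derived tumoroid 3, 9 of 10 genes were lower by the same rule, where 20.7% of all genes differed in either direction. Scaled to epithelial markers all 10 were lower and 64.8% of all genes differed, with the median log2 ratio of all genes at -1.61. Club, basal and epithelial markers summed to 7083, 1761 and 8330 CPM in this tumoroid, against 121 to 1636, 2.30 to 30.1 and 979 to 5303 CPM in the 6, and their part was not tested. Sftpb again exceeded Sftpc on the TPM scale, 4353 against 3405 TPM, as in the mixed or bronchiolar BASC organoids. Sox2 was 151 CPM there and 0.0622 to 22.4 CPM in the 6, while Gata6 was 13.95 against 36.1 to 131 CPM. The lipid transfer gene Sec14l3 (2.24 CPM) and Dgat2 (2.59 CPM) were the lipid genes furthest below the 6.

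Set beside the bronchiolar BASC Ad-Cre organoid, a contrast added after the data were seen, the bronchiolar tumoroid differed at least 2-fold for 3 of 10 genes, against 22.0% of 14599 genes in either direction. Sftpc was 145 CPM in the organoid and 1684 CPM in the tumoroid (11.6-fold), and Sftpb 1659 and 4063 CPM (2.45-fold). On the TPM scale Sftpb was under 2-fold, which leaves 2 of 10 genes against 24.2% of all. Napsa went the other way, 35.3 and 6.35 CPM (0.180-fold). Abca3, Lpcat1, Sftpd and Slc34a2 were within 1.26-fold.

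The autochthonous tumoroid, from a tumor that arose in the lung of an EGFR TL mouse, exceeded the 6 alveolar transplant tumoroids for 3 of 10 genes, where 5.16% of 15575 genes were higher by the same rule. Abca3 was 2098 CPM (2.39-fold above the mean of the 6), Slc34a2 5987 CPM (2.43-fold) and Napsa 679 CPM (3.01-fold). Sftpc was 55393 CPM and Sftpb 11967 CPM, both within the range of the 6. Scaled to epithelial markers, or without AT2-derived tumoroid 1, the count was 6 of 10, where 9.05% and 12.2% of all genes differed in either direction. Lyz2 was 6286 CPM there and 190 to 1718 CPM in the 6, and Scd1 17464 CPM against 1996 to 8397 CPM.

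Over the 18 libraries the genes whose log2 CPM was most like the mean of the 10, among 11852 genes with a mean of at least 5 CPM, were Atp13a4, Lgi3, Maob, Lrp2, Cldn18, Nckap5, Esam and Dpp4 (Pearson r from 0.982 to 0.989, as a description). The 18 points share classes, platforms and support cells. Lrp2, an endocytic receptor, was 0.203 to 0.425 CPM in trachea, 4.04 to 12.4 in mixed or bronchiolar BASC organoids, 293.5 to 635 in alveolar organoids and 126 to 494 in alveolar transplant tumoroids. Cldn18, a tight junction protein, reached at most 0.535 CPM in trachea and 625 to 1227 CPM in alveolar organoids. Of the 10 genes themselves Lamp3 was the most like the mean of the other 9 (r = 0.986) and Sftpd the least (r = 0.756). Within the 6 alveolar transplant tumoroids the order was different. There r was -0.296 for Napsa, 0.252 for Sftpa1, 0.492 for Ctsh, 0.880 for Sftpd and at least 0.812 for the others, each from 6 points.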

How the data were processed

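RNA-seq of 18 mouse cultures was analysed from 1 gene table per library. The authors trimmed reads with Trimmomatic 0.39, aligned them with STAR 2.6.1d and quantified them with RSEM 1.3.2 against Ensembl GRCm38 transcripts. They deposited expected counts, which RSEM shares out between genes where reads match several, and TPM for each of 46603 genes. The strand setting is not given in the sources used here.

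Expected counts were rounded to whole numbers. Each comparison used the quasi-likelihood test of edgeR 4.0.16 in R 4.3.3 with its low-count filter and TMM scaling, and p-values were adjusted over all genes tested by Benjamini-Hochberg (adjusted p below 0.05). Ad-Cre and Ad-GFP were compared with population as a block, since both aliquots came from 1 sorted population. CPM carries TMM factors over all 18 libraries. Levels of different genes were compared as TPM. With 1 library on a side no test was run, and a gene was called when at least 2-fold different and outside the range of the other group, among genes at 1 CPM or more in any library. Alternatives were DESeq2 1.42.0, limma 3.58.1 on log2(TPM + 1) and log2(TPM + 0.1), other scalings, no filter, other sample sets and each library left out. The script was tested on simulated data.

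Members and gene lists were chosen with earlier results of these data known. Named pathway genes are up to 3 per list and direction with the largest called change.. Labels do not say that tumoroids came from separate mice, so p-values measure the spread between these cultures. Symbols were matched for 46005 genes and not for 598. Human EGFR reads were not analysed here.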

Additional observations from a re-analysis of the deposited data

Results flagged for a closer look

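In the 4 tracheal organoids, the NGFR-negative Ad-Cre library stood far above the other 3 for Sftpa1 (6.48 CPM), Sftpc (27.0 CPM) and Lamp3 (2.34 CPM). The gap to the nearest library was 0.918, 0.967 and 0.836 of the whole range, above the critical value of Dixon's test for 4 samples. In all, 20 groups of values were tested this way and 3 passed. The test used CPM without a log. Its chance rate, about 1 in 20 groups, assumes normally distributed values. That was not checked for these low values, so the 3 flags cannot be read as an excess over chance. The 3 values come from the same library and so are not independent of each other.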

How the results depend on the processing

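The direction and call of all 10 genes between alveolar and tracheal organoids held under every alternative that gave an adjusted p, DESeq2 leaving Sftpb and Sftpc without one. Between alveolar and mixed or bronchiolar BASC organoids only the call of Sftpd was lost in any. Scaling to epithelial markers moved the median log2 value of all genes to 1.31 and 1.54 in these comparisons. There it raises genes on the alveolar side, so it is no check on the direction of the 10. It moved the median to -0.27 between tumoroids and alveolar organoids, and to 0.90 between tumoroid origins. Low tracheal counts, 8 at the least, limit how well the folds of Lamp3, Sftpa1, Sftpb and Sftpc are known. The cause was not tested for any change given here.

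Between mixed or bronchiolar BASC and tracheal organoids 1 of the 10 genes was called. DESeq2 called 8, edgeR without the count filter 3 and limma on log2(TPM + 1) 2. With all 18 libraries in 1 fit 3 were called, and 0 to 8 with a library left out. The share of all genes called also differed widely between fits, so these counts cannot be compared with each other. Sftpd turned to -0.19 and Abca3 to -0.074 with epithelial scaling, and with a library left out the range was -0.076 to 0.10 for Sftpd.

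Without the replicate block, Ad-Cre against Ad-GFP still gave 0 calls among the 10, with the log2 difference turned to -1.13 for Sftpa1, -0.11 for Sftpb, -0.021 for Sftpc, -0.72 for Lamp3, -0.14 for Napsa, -0.40 for Slc34a2 and -0.093 for Lpcat1. The distal against tracheal effect without the block also gave 0 calls, with Napsa at -0.35, Slc34a2 at -0.64 and Lpcat1 at -0.27. With a pair left out, virus differences that changed sign ran over -0.29 to 0.11 for Sftpd, -0.014 to 1.80 for Lamp3 and -0.024 to 1.18 for Napsa. The distal against tracheal effect then changed sign for Sftpa1 (-2.86 to 0.97), Sftpb (-1.98 to 0.19), Sftpc (-2.54 to 2.08) and Abca3 (-0.47 to 0.26). It also did so for Lamp3 (-2.21 to 1.44), Napsa (-0.32 to 2.64), Slc34a2 (-0.73 to 1.23) and Lpcat1 (-0.37 to 1.23). With all pairs, the distal against tracheal effect of Lamp3 was 0.33 and 0.027 by limma at pseudocounts of 1 and 0.1.

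Between alveolar transplant tumoroids and alveolar organoids, 1 of the 10 genes in place of 2 was called with epithelial scaling, with all 18 libraries in 1 fit and with tumoroids of a shared number summed, and 1 to 2 with a library left out, the gene lost being Lamp3. Some uncalled genes changed sign. Sftpb was -0.49 with epithelial scaling and -0.032 by limma at both pseudocounts. Sftpc was -0.028 without the filter, -0.71 with epithelial scaling, -0.36 by limma at both pseudocounts and -0.12 with all 18 libraries. Abca3 was 0.066 with shared numbers summed. With a library left out the ranges were -0.40 to 0.24 for Sftpc, -0.22 to 0.19 for Abca3, -0.36 to 0.048 for Lpcat1 and -0.51 to 0.057 for Ctsh.

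Between tumoroid origins limma gave -0.19 for Sftpb, -0.083 and -0.084 for Abca3, -0.011 for Slc34a2, -0.10 for Lpcat1 and -0.21 for Ctsh, at pseudocounts of 1 and 0.1. Leaving out a library gave -0.14 to 0.62 for Sftpb, -0.13 to 0.56 for Abca3, -0.099 to 0.68 for Slc34a2, -0.24 to 0.69 for Lpcat1 and -0.59 to 0.84 for Ctsh. The autochthonous tumoroid exceeded the 6 for 6 genes with epithelial scaling and for 3 to 6 with a library left out.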

Other observations

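Hc, which encodes complement C5, and the lysozyme Lyz2 were the 2 genes called lower, among 11 AT2 genes apart from the 10, in alveolar transplant tumoroids against alveolar organoids. Of all 16260 genes tested there, 9.07% were called lower. Hc was 254, 190 and 134 CPM in AT2 Ad-GFP, AT2 Ad-Cre and alveolar BASC Ad-Cre organoids and at most 11.45 CPM in the 6 alveolar transplant tumoroids, against 154 CPM in the autochthonous tumoroid. Lyz2 was 8963, 6110 and 5472 CPM in those organoids, 190 to 1718 CPM in the 6 and 6286 CPM in the autochthonous tumoroid. For both genes the autochthonous tumoroid lay within the range of the alveolar organoids. Napsa differed, with 679 CPM in the autochthonous tumoroid between the 2 classes. These 3 genes were set side by side after their values were seen, and no test was run on the 1 autochthonous library.

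In the 6 promoter windows at hand, the genes with 25 to 30 CG dinucleotides were Abca3, Slc34a2 and Lpcat1. In trachea they stood at 9.33 to 39.3 TPM, and those with 0 to 8, Sftpa1, Sftpb and Lamp3, at 0.08 to 34.1 TPM. The ranges overlap, since Sftpb in the NGFR-negative Ad-Cre organoid, at 34.1 TPM, lay above all tracheal values of Lpcat1 and Slc34a2. The comparison was made after these values were seen, over 6 genes, and was not tested.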
